A study of Mus musculus with 4 samples.

Results

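The glycolysis and hypoxia target genes described here are 38 genes, chosen by symbol, that carry glucose to lactate or respond to low oxygen. They were found on an Agilent mouse expression array by the gene name printed with each probe, which gave 61 probes of the 39429 that were not controls and all 38 of the 30222 gene names. The genes fall into 8 roles: 2 glucose transporters, 13 widely expressed or neural glycolytic enzymes, 3 muscle isoforms, 2 enzymes that make and break fructose bisphosphate signals, 3 lactate genes, 2 kinases of pyruvate dehydrogenase, 12 hypoxia targets outside glycolysis and the oxygen-regulated transcription factor Hif1a.

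RNA of 4 groups was measured, with 1 array each. Stem cells were mouse embryo mesenchymal stem cells, precursors of connective tissue, of C3H background. The transfected tissue was a ligament-like tissue grown from those cells after they received a synthesized mouse gene, called only A, in the expression vector pCAGGS. Wild type ligament and ligament of mice transgenic for A, made by putting the same plasmid into fertilized eggs, were both of C57BL/6J background. The promoter of the pCAGGS vector is known to be active in most cell types and is not specific to ligament. Age, the ligament taken and the number of animals are not given in the sources used here, and strain, origin and culture differ together between cells and ligament. With 1 array per group no p-value or spread between animals or cultures can be given.

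Glycolysis turns glucose into pyruvate through a chain of enzymes, and lactate dehydrogenase turns pyruvate into lactate when mitochondria take up less of it. Several steps have a muscle isoform, made in contracting fibres, beside isoforms made in most cells. When oxygen falls, prolyl hydroxylases no longer mark the HIF alpha subunits for destruction, and HIF binds short DNA motifs beside many of these genes. Tendon and ligament are poorly supplied with blood and their cells rely much on glycolysis.

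The genes' promoters are shown first because HIF acts on its targets through a short DNA motif. RefSeq promoter sequence (GRCm38.p6, 250 bases before to 50 after a start) was matched by symbol for 36 of the 38 genes, Ero1l under its current symbol Ero1a, and 51 promoters. The motifs ACGTG and GCGTG were searched on both strands. ACGTG also lies inside the E-box CACGTG, which then counts on each strand. At least 1 match lay in 39 of the 51 promoters (76.5%) and in 14380 of all 32851 promoters (43.8%). The median GC content was 60.7% in the genes' promoters and 52.7% in all promoters, and the part of GC content in this difference was not tested. By gene, 10 of 11 hypoxia targets with a promoter entry, 10 of 13 glycolytic enzymes and 2 of 3 muscle isoforms had a match in at least 1 promoter. Counted the same way, 12628 of all 27025 genes had a match (46.7%). The 250 bases before the start follow for 3 hypoxia targets with lower signal in the transfected tissue than in stem cells (Car9, Ankrd37 and Bnip3) and for the muscle isoform Pgam2, 5′ to 3′ on the gene's strand, with the motif in capitals on either strand.
Car9, chr4:43506776-43507025, plus strand: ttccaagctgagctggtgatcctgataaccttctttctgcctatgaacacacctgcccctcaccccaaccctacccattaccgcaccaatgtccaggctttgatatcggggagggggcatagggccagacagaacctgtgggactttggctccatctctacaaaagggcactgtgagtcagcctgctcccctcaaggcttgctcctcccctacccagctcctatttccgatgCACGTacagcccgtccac
Ankrd37, chr8:45999851-46000100, minus strand: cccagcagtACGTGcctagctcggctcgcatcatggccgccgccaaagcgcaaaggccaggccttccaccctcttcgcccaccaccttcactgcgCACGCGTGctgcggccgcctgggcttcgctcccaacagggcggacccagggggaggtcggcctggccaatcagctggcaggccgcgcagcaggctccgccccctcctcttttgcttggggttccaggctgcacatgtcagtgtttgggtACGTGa
Bnip3, chr7:138909507-138909756, minus strand: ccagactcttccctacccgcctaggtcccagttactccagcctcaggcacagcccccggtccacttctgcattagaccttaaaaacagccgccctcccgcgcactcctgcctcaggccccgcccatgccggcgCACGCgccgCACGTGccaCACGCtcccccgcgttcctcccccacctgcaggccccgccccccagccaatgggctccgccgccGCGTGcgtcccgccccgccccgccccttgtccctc
Pgam2, chr11:5803797-5804046, minus strand: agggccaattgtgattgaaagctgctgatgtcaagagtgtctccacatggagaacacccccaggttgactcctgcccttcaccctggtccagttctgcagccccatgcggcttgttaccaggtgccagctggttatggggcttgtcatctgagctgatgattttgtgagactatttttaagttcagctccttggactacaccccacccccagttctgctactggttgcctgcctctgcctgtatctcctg
In these windows Car9 had 1 match, 18 bases before the start, Ankrd37 had 4, the nearest 6 bases before it, Bnip3 had 5, and the letters were not found in Pgam2. Counted over the whole promoters, matches also lay beside genes that were not lower in the tissue. Ero1l, higher there than in stem cells, had 3, and Egln1, Vegfa and Adm, within 2-fold, had at most 2 each. The muscle isoforms Pfkm and Eno3 had at most 3 and 1. Of the genes with a promoter entry and no match, Pgam2 (-1.22) and Tpi1 (-1.87) were also lower in the tissue than in stem cells. Gpi1 and Eno2 were within 2-fold, and Car12 was not compared. A match is a run of letters and says nothing of binding in these samples.

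Each value below is the normalised signal, the log2 of the background-subtracted signal of a probe minus the log2 of the 75th percentile of its array. Where a gene has several probes, the brightest on average represents it. Higher and lower mean a difference of at least 2-fold. The scanner software marked 49.0% to 56.3% of an array's spots as well above background. Probes spotted 10 times varied with an SD of 0.0654 to 0.185 (log2) within an array, which covers spot noise and nothing else. Of 8 mesenchymal stromal markers 7 were well above background in stem cells, and 7 were lower in wild type ligament than there. Of 8 tendon and ligament markers 7 were well above background on each array but that of transgenic ligament, which had all 8, so their presence does not set the ligaments apart from the cells. Both ligaments also held skeletal muscle RNA. Of 15 muscle markers, 14 were well above background in wild type ligament, where Myh4 gave no value, and 15 in transgenic ligament. On the cell arrays 10 of these markers were so in stem cells and 6 in the transfected tissue, at low levels (median -4.81 and -5.76 against 8.46 and 8.39 in the ligaments). In bulk RNA, fewer cells of a type and less RNA per cell cannot be told apart.

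**Figure D1:**
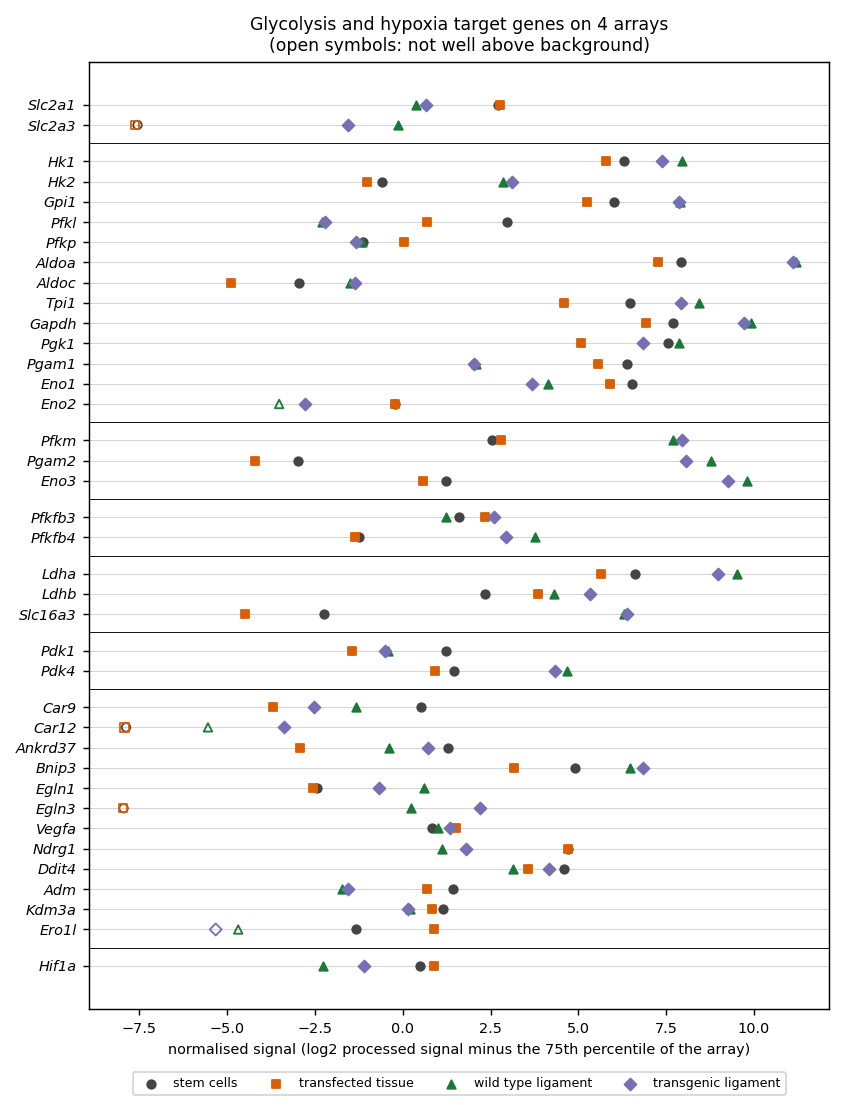
Normalised signal (log2, horizontal axis) of the 38 genes, 1 row per gene and grouped by role, on the arrays of stem cells (circles), transfected tissue (squares), wild type ligament (triangles) and transgenic ligament (diamonds), 1 array per group. Open symbols were not well above background. Pgam2, Eno3 and Pfkm lie far to the right in both ligaments, and Car9 and Ankrd37 lie lowest in the transfected tissue.

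The 3 muscle isoforms set ligament apart from the cells. Pgam2, the muscle phosphoglycerate mutase (probe chr11:5701822-5703040, mm9), had a normalised signal of -2.99 in stem cells, -4.21 in the tissue grown from them, 8.77 in wild type and 8.07 in transgenic ligament. Its background-subtracted signals were 147, 122, 124603 and 81530 in the same order, so the gene was dim on both cell arrays, though well above background, and far brighter on both ligament arrays. Eno3, the muscle enolase (chr11:70475953-70476012), was at 1.23 in stem cells, 0.58 in the tissue, 9.80 in wild type and 9.26 in transgenic ligament. Pfkm, the muscle phosphofructokinase (chr15:97962713-97962772), was at 2.53, 2.79, 7.69 and 7.96. Its probe was spotted 10 times on each array, with SDs over spots of 0.133, 0.0322, 0.0438 and 0.0376, which measure repeat spots within an array and not the spread between samples.

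Wild type ligament thus exceeded stem cells 3469-fold for Pgam2, 380-fold for Eno3 and 35.7-fold for Pfkm. The 14 skeletal muscle markers that could be compared were all higher in wild type ligament too, with a median log2 difference of 12.15 over the 10 measured on both arrays, and their summed signal was 2.21 times the 75th percentile in stem cells and 7865 times in ligament. Acta1, the skeletal actin, rose from 0.69 to 10.40 and Ckm, muscle creatine kinase, from -2.82 to 9.59. The part of muscle RNA in the signal of the isoforms was not tested.

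Of the other isoforms of the same 3 steps, Pgam1, Pfkl, Eno1 and Eno2 were lower in wild type ligament than in stem cells and Pfkp was within 2-fold. Pgam1, the mutase of most cells (chr19:41992898-41992957), was at 6.40 in stem cells, 5.55 in the tissue and 2.08 and 2.02 in wild type and transgenic ligament. Pfkl, the liver-type phosphofructokinase (chr10:77450926-77450985), was at 2.97, 0.70, -2.30 and -2.23. Both were thus lower on both ligament arrays than on either cell array, by log2 differences of -4.31 and -5.27 between wild type ligament and stem cells. Eno1, the enolase of most cells, was at 6.53, 5.90, 4.12 and 3.68, and its difference from stem cells was -2.41 in wild type ligament. Eno2, the neural enolase, was at -0.23, -0.21, -3.52 and -2.78, not well above background in wild type ligament and at least 9.07-fold lower there than in stem cells. Pfkp, the platelet-type phosphofructokinase, was at -1.13, 0.03, -1.17 and -1.33 and differed by -0.04 between wild type ligament and stem cells.

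The gap between isoforms was therefore wide in every step. From stem cells to wild type ligament Pgam2 gained 16.07 on the log2 scale over Pgam1, Eno3 gained 10.98 over Eno1, and Pfkm gained 10.43 over Pfkl and 5.19 over Pfkp. The probes of these pairs share few letters in a row, at most 5 for Pgam2 with Pgam1 and for Pfkm with Pfkl or Pfkp, and 7 for Eno3 with Eno1, of 60 bases each. The first 30 bases of the probes are given to show how unlike they are.
Pgam1: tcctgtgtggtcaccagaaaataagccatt
Pgam2: atgggaacagccttcggggcattgtgaaac
Eno1: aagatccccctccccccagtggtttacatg
Eno3: ctttcacaggaaagacacaggccttcaagc
The Eno1 probe carries the Eno1 transcript's accession, but its deposited position is chromosome 2 (80678866 to 80678925, mm9), whereas RefSeq places the gene on chromosome 4.

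**Figure D2:**
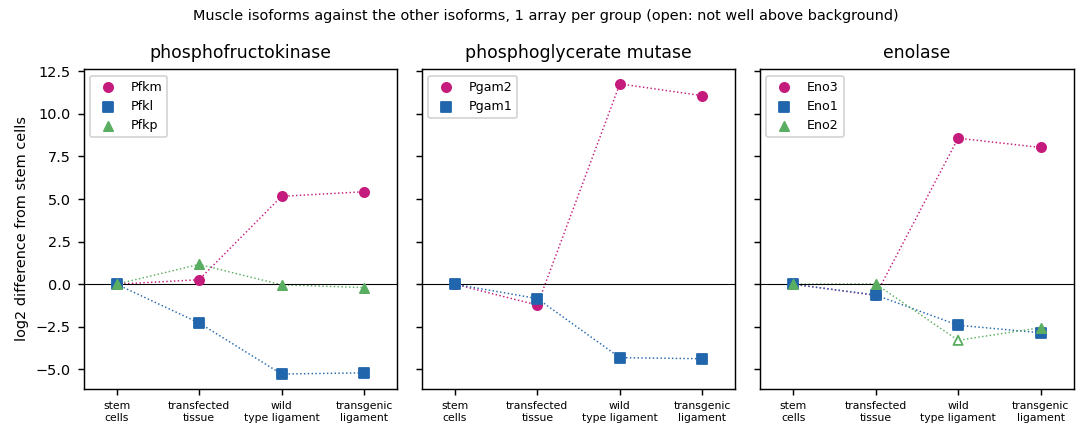
Log2 difference of normalised signal from stem cells (vertical axis) for phosphofructokinase, phosphoglycerate mutase and enolase isoforms on the 4 arrays (horizontal axis), 1 array per group, with stem cells at 0 by construction and the dotted lines only joining points of a gene. Pfkm, Pgam2 and Eno3 differed by 5.16, 11.76 and 8.57 in wild type ligament, and Pfkl, Pgam1 and Eno1 by -5.27, -4.31 and -2.41.

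The hypoxia targets outside glycolysis did not follow the muscle isoforms. Between wild type ligament and stem cells, 3 of the 11 that could be compared were higher (Bnip3, Egln1 and Egln3) and 6 lower, with a median log2 difference of -1.48 against 8.57 for the muscle isoforms. The gap of 10.05 between these medians was at least 8.56 under the other ways of processing tried. In all, 19 of 37 compared genes of the whole list were at least 2-fold higher (51.4%) and 13 lower (35.1%), where 33.7% and 21.9% of all genes compared were so. The count of higher genes was 12 with quantile normalization, and the list's median of 1.45 then fell to 0.26, beside -0.27 for all genes. With the deposited values 13 were higher and 13 lower. The 75th percentile used for centring was 1164.5 in stem cells and 285.5 in wild type ligament. Signals before centring, in the same order, were 74733 and 67374 for Gpi1, called higher, and 283707 and 666577 for Aldoa. Hk1, whose probes disagreed as described below, is among the 19.

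Among the hypoxia targets in ligament, Egln3, a prolyl hydroxylase abundant in muscle, had the largest difference. Its signal (chr12:55280953-55281012) was not well above background on either cell array, and reached 0.24 in wild type and 2.20 in transgenic ligament. It was at least 65.3-fold higher in wild type ligament than in stem cells. Egln1, the main oxygen sensor of the same family, was at -2.44 and -2.57 on the cell arrays, 0.59 in wild type and -0.68 in transgenic ligament. Bnip3, a mitochondrial protein of mitophagy, was at 4.91 in stem cells and 6.47 in wild type ligament, a difference of 1.56 that fell within 2-fold with quantile normalization and with the deposited values.

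The lower hypoxia targets in ligament were also well spread. Ndrg1, a stress-responsive gene of differentiation, was at 4.71 on both cell arrays and at 1.12 and 1.79 in wild type and transgenic ligament. Adm, the vasodilator adrenomedullin, was at 1.42 in stem cells, 0.70 in the tissue and -1.75 and -1.56 in the ligaments. Ero1l, an oxidase of disulphide formation, was not well above background in either ligament and at least 4.23-fold lower in wild type ligament than in stem cells, a bound that fell within 2-fold with normexp background correction. Hif1a itself was at 0.48 in stem cells, 0.89 in the tissue, -2.29 in wild type and -1.11 in transgenic ligament. Its second probe was not well above background on any array.

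Vegfa, the endothelial growth factor, and Kdm3a, a histone demethylase, stood out by their small range. Vegfa lay between 0.84 and 1.51 over the 4 arrays and Kdm3a between 0.15 and 1.14, and neither differed 2-fold in any of the 4 comparisons by the probe used. Kdm3a passed 2-fold, lower in wild type ligament than in stem cells, with centring on commonly detected probes. A second Vegfa probe differed by 1.24 between transgenic and wild type ligament and by -1.01 between the tissue and wild type ligament, past 2-fold where the first was not.

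The glucose transporters differed in opposite directions between ligament and cells, and the 3 lactate genes were all higher in wild type ligament than in stem cells. Slc2a1, the glucose transporter of most cells, was at 2.70 in stem cells and 2.76 in the tissue and at 0.37 and 0.65 in wild type and transgenic ligament. Slc2a3, a high-affinity transporter of neurons and blood cells, was not well above background on either cell array and at -0.13 and -1.57 in the ligaments, at least 50.3-fold higher in wild type ligament than in stem cells. All 9 erythroid and all 9 neutrophil markers were higher there too, and their part in the Slc2a3 signal was not tested. Slc16a3, the lactate exporter of fast muscle and of hypoxic cells (chr11:120820023-120820082), was at -2.25, -4.48, 6.31 and 6.39 in stem cells, tissue, wild type and transgenic ligament, a difference of 377-fold between wild type ligament and stem cells. Pfkfb4, which sets the level of the activator of phosphofructokinase, was 31.9-fold higher in wild type ligament than in stem cells. Pdk4, the pyruvate dehydrogenase kinase of fasting muscle, was 9.39-fold higher, whereas Pdk1, the hypoxia-induced kinase, was 3.10-fold lower.

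For Gapdh, Aldoa, Gpi1 and Tpi1, all abundant, the call between wild type ligament and stem cells changed with the way of processing. Gapdh, the brightest of its 8 probes, was at 7.69 in stem cells and 9.91 in wild type ligament, Aldoa at 7.93 and 11.19, Gpi1 at 6.00 and 7.88 and Tpi1 at 6.47 and 8.43. These differences of 2.22, 3.26, 1.88 and 1.96 all fell within 2-fold with quantile normalization and with the deposited values. Among all 656 genes with a mean normalised signal of 6 or more on the same arrays, the median difference was 0.82 and 45.0% were at least 2-fold higher. Ldha, which makes lactate, was 7.61-fold higher, Ldhb, the heart-type subunit, 3.87-fold and Hk2, the insulin-responsive hexokinase of muscle, 10.9-fold, and these kept their call under every way of processing tried. Aldoc was 2.74-fold higher but within 2-fold with quantile normalization. Pgk1 differed by 0.31, but was at least 2-fold lower in ligament with quantile normalization.

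Hk1, the hexokinase of most cells, cannot be given a direction between cells and ligament. Its brightest probe, designed on an mRNA record and placed on chromosome 5 (22118404 to 22118463, mm9), was at 6.30 in stem cells, 5.77 in the tissue, 7.96 in wild type and 7.38 in transgenic ligament. The other probes lie on chromosome 10, where RefSeq places Hk1. The one at chr10:61731856-61731915 was at 4.14, 4.33, 0.60 and 0.89, and the one at chr10:61732717-61732776 was at 0.77 and 0.16 in the cells and not well above background in the ligaments. Wild type ligament therefore differed from stem cells by 1.66 with the first probe and by -3.55 with the second. The 3 probes share at most 5 letters in a row, and their first 30 bases show that they read different stretches.
Hk1, chromosome 5: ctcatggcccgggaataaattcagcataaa
Hk1, chromosome 10, first: ggaatctcccatcgctttagtgagccattg
Hk1, chromosome 10, second: aaggaactgtcaccaaagtgtaccgtgtcc
The chosen probes of Gapdh (chromosome X, gene on 6) and Pgk1 (chromosome 3, gene on X) were likewise placed away from their gene. The Gapdh probes on its own chromosome gave the same direction, from 2.39 to 2.80 higher in wild type ligament than in stem cells.

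The transfected tissue was compared with its parent stem cells, from which it differs both in A and in growth into a tissue. No untransfected tissue or empty vector is among the 4 arrays, so A and tissue growth cannot be told apart here. Of 35 genes compared, 3 were at least 2-fold higher in the tissue (8.57%, where 10.9% of all genes compared were so) and 11 lower (31.4%, against 13.3%). The list's median log2 difference was -0.66 and that of all genes -0.08. It was -0.23 with quantile normalization and -0.22 with the deposited values, while 13 of the 14 genes past 2-fold kept their call under each of these. The lower genes were 4 hypoxia targets (Car9, Ankrd37, Bnip3 and Ddit4), 4 glycolytic enzymes (Pfkl, Aldoc, Tpi1 and Pgk1), Pgam2, Slc16a3 and Pdk1.

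Car9, the cell surface carbonic anhydrase that serves as a marker of hypoxia (chr4:43526518-43526577), was at 0.52 in stem cells and -3.71 in the tissue, 18.7-fold lower. The ligaments lay between these at -1.33 and -2.53. Ankrd37, an ankyrin repeat protein (chr8:47082404-47082463), was at 1.29 in stem cells and -2.92 in the tissue, 18.4-fold lower, with the ligaments again between. These are the genes whose promoters are shown above, with that of Bnip3, which fell by 1.75 with its brightest probe and by 1.83 and 1.92 with its others. Pdk1 was at 1.22 in stem cells and -1.45 in the tissue, 6.38-fold lower. Ddit4, an inhibitor of mTOR signalling, differed by -1.05, which became less than 2-fold with quantile normalization, with the deposited values and with centring on commonly detected probes.

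The remaining hypoxia targets did not share this fall. Ero1l was at -1.33 in stem cells and 0.89 in the tissue, 4.67-fold higher. Vegfa differed by 0.66, Egln1 by -0.12, Kdm3a by -0.31 and Adm by -0.72, and Ndrg1 by less than 0.01 in size. Slc2a1 (0.07) and Hif1a (0.41) were also within 2-fold, and Slc2a3, Car12 and Egln3 were not well above background on either array. The median of the 10 hypoxia targets compared was -0.52 and that of the 3 muscle isoforms -0.66, a gap of -0.14.

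Among the enzymes, the tissue had less Pfkl (-2.27) and more Pfkp (1.16). These phosphofructokinase isoforms thus changed in opposite directions and came closer in level, from 2.97 and -1.13 in stem cells to 0.70 and 0.03 in the tissue. A second, dim Pfkp probe differed by 0.69, within 2-fold. Pgk1 differed by -2.48, Aldoc by -1.94 and Tpi1 by -1.87. Hk1, Hk2, Gpi1, Aldoa, Gapdh, Pgam1 and Eno1 lay between -0.84 and -0.42, and Eno2 at 0.02. Those of Hk1, Aldoa and Eno1 changed sign, within 2-fold, with quantile normalization and with the deposited values. The 5 Gapdh probes on its own chromosome differed by -1.78 to -1.08, all past 2-fold, where the brightest probe did not. Brightness moved with these values. Over all 417 genes with a mean normalised signal of 6 or more the median difference was -0.74 and 15.6% were lower, and the 6 listed genes of that level had a median of -0.72 with 1 lower. Below a mean of 2, all-gene medians lay between -0.04 and 0.04. The lower listed genes there were Car9, Ankrd37, Pdk1, Pfkl, Aldoc, Slc16a3 and Pgam2. They made up 3 of 4 listed genes below a mean of -2, 3 of 8 from -2 to 0 and 1 of 8 from 0 to 2. Of all genes at these levels, 16.8%, 12.3% and 9.3% were lower in the same order. The part of brightness in the listed genes' values was not tested.

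Of the genes around the pathway, Slc16a3 was 4.70-fold lower in the tissue, while Pfkfb3 (0.74), Pfkfb4 (-0.13) and Pdk4 (-0.53) lay within 2-fold.

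Ldha and Ldhb differed in opposite directions. Ldhb was at 2.35 in stem cells and 3.84 in the tissue, 2.80-fold higher, and Ldha at 6.60 and 5.65. The brightest Ldha probe, on the 3′ side, differed by -0.95 and the probe farthest to the 5′ side by -2.97, so Ldha was within 2-fold by the first and lower by the second. Ldha lay outside the quartiles of such gaps. Over 2657 genes with probes at least 500 bases apart, the 5′ probe was lower in the tissue relative to the 3′ probe in 68.6%, with a median gap of -0.31 and a lower quartile of -0.82, where the gap of Ldha was -2.02. Among the 157 of these genes whose 3′ probe had a mean normalised signal of 4 or more the median was -0.02 and 53.5% were lower. The part of RNA quality or labelling in the listed genes' values was not tested.

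Cell division genes moved with this comparison, with 9 of 10 lower, a median of -3.24 and a summed signal of 148.6 times the 75th percentile in stem cells and 14.6 in the tissue. Adipocyte markers moved the other way, with 4 of 5 higher. Of 8 tendon and ligament markers 1 was higher and 2 were lower, with a median of -0.36. The part of these marker genes in the values of the glycolysis genes was not tested. Of 46 other genes of glycolysis and hypoxia from a second list, 14 were lower (30.4%, against 13.3% of all genes) and 7 higher (15.2%, against 10.9%). Higd1a and Fam162a, mitochondrial proteins induced by hypoxia, were 5.87-fold and 5.48-fold lower, and Gpd1, which links glycolysis to glycerol lipids, was 12.2-fold higher.

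**Figure D3:**
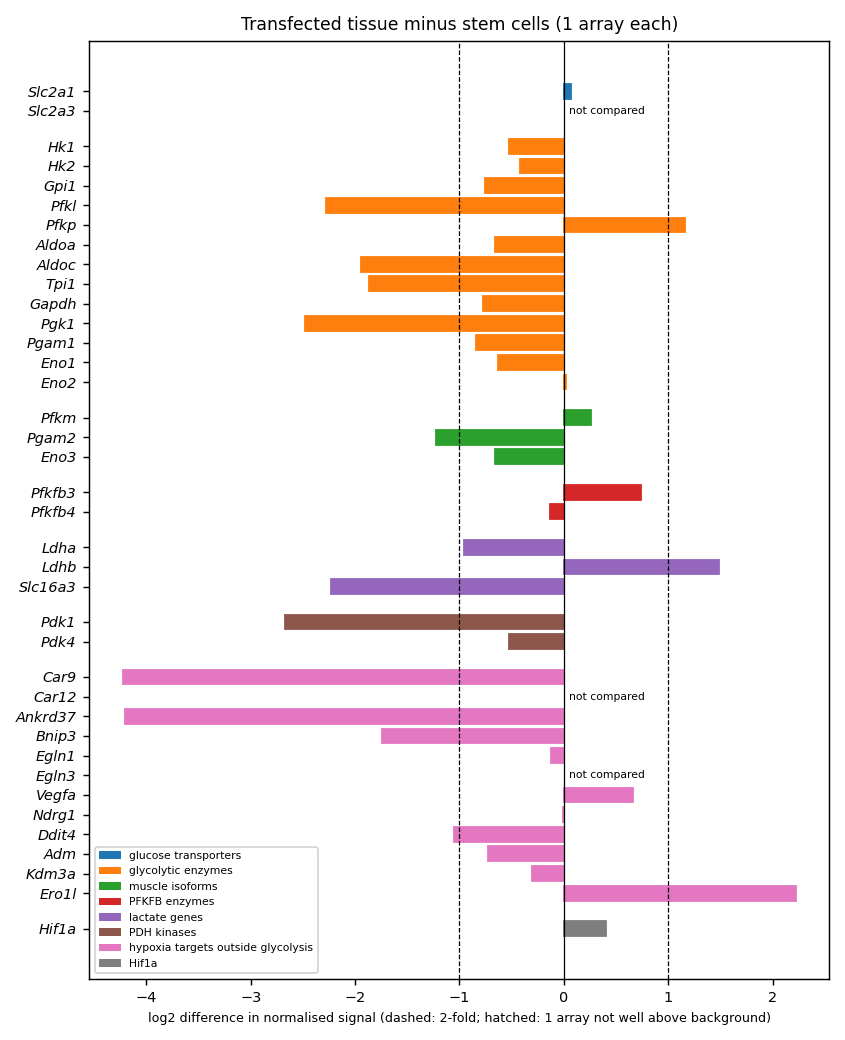
Log2 difference of normalised signal between the transfected tissue and stem cells (horizontal axis), 1 array each, for the 38 genes coloured by role, with dashed lines at 2-fold. Car9 (-4.23) and Ankrd37 (-4.20) reach farthest down and Ero1l (2.22) farthest up, and 3 genes were not compared.

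**Figure D4:**
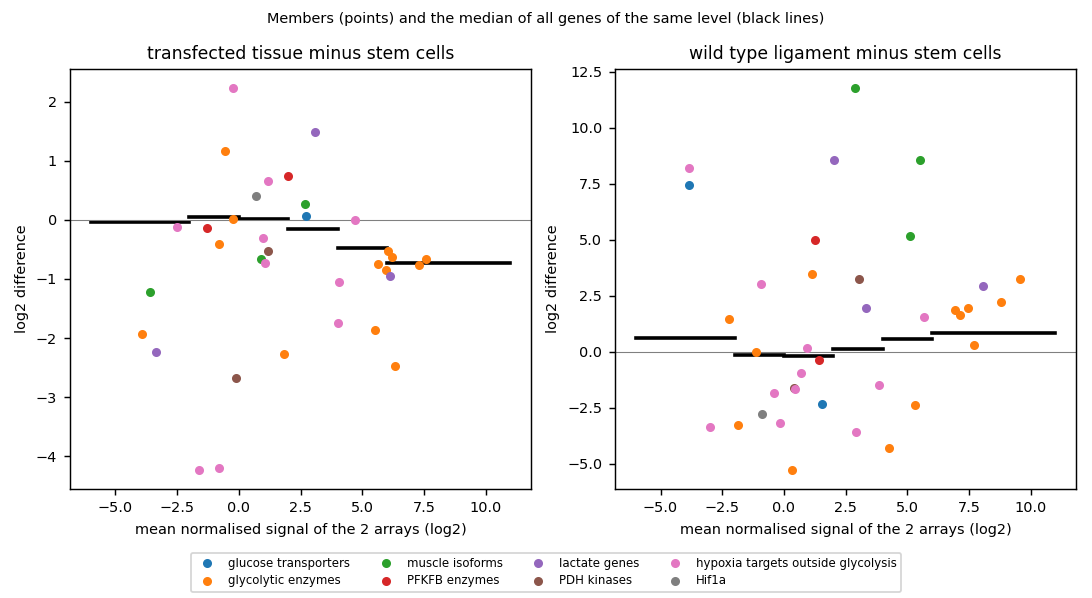
Log2 difference (vertical axis) against the mean normalised signal of the pair of arrays (horizontal axis) for the listed genes (points, coloured by role), with the median of all genes of the same level as black lines, for the transfected tissue and for wild type ligament, each minus stem cells. The lines fall to -0.74 for the brightest genes in the tissue and rise to 0.82 in ligament.

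Transgenic ligament was set beside wild type ligament. With 1 array each, A cannot be told apart here from differences between animals or in the tissue taken. The pair also differed in blood, skin and tendon markers, as given below. Of 37 genes compared, 6 were at least 2-fold higher (16.2%, where 6.1% of all genes compared were so) and 4 lower (10.8%, against 6.82%), with a median log2 difference of -0.03. With normexp background correction 5 of these 10 calls were left, and the counts were 4 higher and 1 lower. Egln3 (0.24 in wild type, 2.20 in transgenic), Pfkfb3 (1.24 and 2.59), Ldhb (4.30 and 5.34) and Ddit4 (3.12 and 4.16) were higher and Slc2a3 (-0.13 and -1.57) was lower with both corrections, although Ddit4 fell within 2-fold with the deposited values.

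Egln3 was 3.90-fold higher in transgenic ligament by its brighter probe and by a log2 difference of 2.61 by its other. Pfkfb3, the inducible activator of glycolysis, was 2.55-fold higher by its brighter probe. Its other probe was not well above background in wild type ligament. Ankrd37 differed by 1.11 and Hif1a by 1.18, while Egln1 differed by -1.27 and Car9 by -1.20. These 4 signals were dim, between -2.53 and 0.72, and fell within 2-fold with normexp correction. Pgk1 differed by -1.02 and was within 2-fold with normexp correction, quantile normalization, the other centring and the deposited values. Car12, another carbonic anhydrase, was well above background on the transgenic array alone, and its bound was 1.02-fold.

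The muscle isoforms differed little between the ligaments. Pfkm differed by 0.27, Eno3 by -0.54 and Pgam2 by -0.70, and of 14 muscle markers 5 were higher and 2 lower (median -0.27). The hypoxia targets had a median of 0.37 and the muscle isoforms -0.54, a gap of -0.92 that lay between -1.22 and -0.66 under the other settings. Of the 13 glycolytic enzymes, Pgk1 was the 1 past 2-fold (7.69% lower, against 6.82% of all genes). Eno2 was not well above background in wild type ligament, and its bound was 1.55-fold higher in transgenic ligament. The rest lay between -0.58 for Hk1 and 0.26 for Hk2. Gapdh differed by -0.20 and Tpi1 by -0.51 with their brightest probes, and their probes farthest to the 5′ side by -1.34 and -1.42. Pfkfb4 (-0.81), Pdk1 (-0.08), Pdk4 (-0.34), Slc16a3 (0.08) and Slc2a1 (0.28) also lay within 2-fold. The other Ldha probes differed by -1.12 and -1.47, and the brightest by -0.55. Over 1866 genes with probes at least 500 bases apart, the 5′ probe was lower relative to the 3′ probe in 56.9%, with a median gap of -0.08. Among the 206 of these genes whose 3′ probe had a mean normalised signal of 4 or more it was 66.0%, with a median of -0.20. The part of RNA quality or labelling in these values was not tested.

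Blood and skin markers moved with this comparison. All 9 neutrophil and 8 of 9 erythroid markers were lower in transgenic ligament (medians -2.39 and, with dim signals at their bound, -1.80), with summed signals of 430 against 1215 and 286 against 1039 times the 75th percentile. Epidermal markers had 7 of 8 higher (median 2.17), and 6 of 8 tendon markers were higher (median 1.72 with dim signals at their bound). Their part in the differences of Slc2a3, Egln3 and the other listed genes was not tested. In the second list of glycolysis and hypoxia genes 2 of 46 were higher (4.35%, against 6.1% of all genes) and 6 lower (13.0%, against 6.82%). Hk3, the hexokinase of blood cells, was 6.82-fold lower, Jmjd6 2.69-fold lower and the hypoxia-induced crosslinking enzyme Lox 4.13-fold higher.

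**Figure D5:**
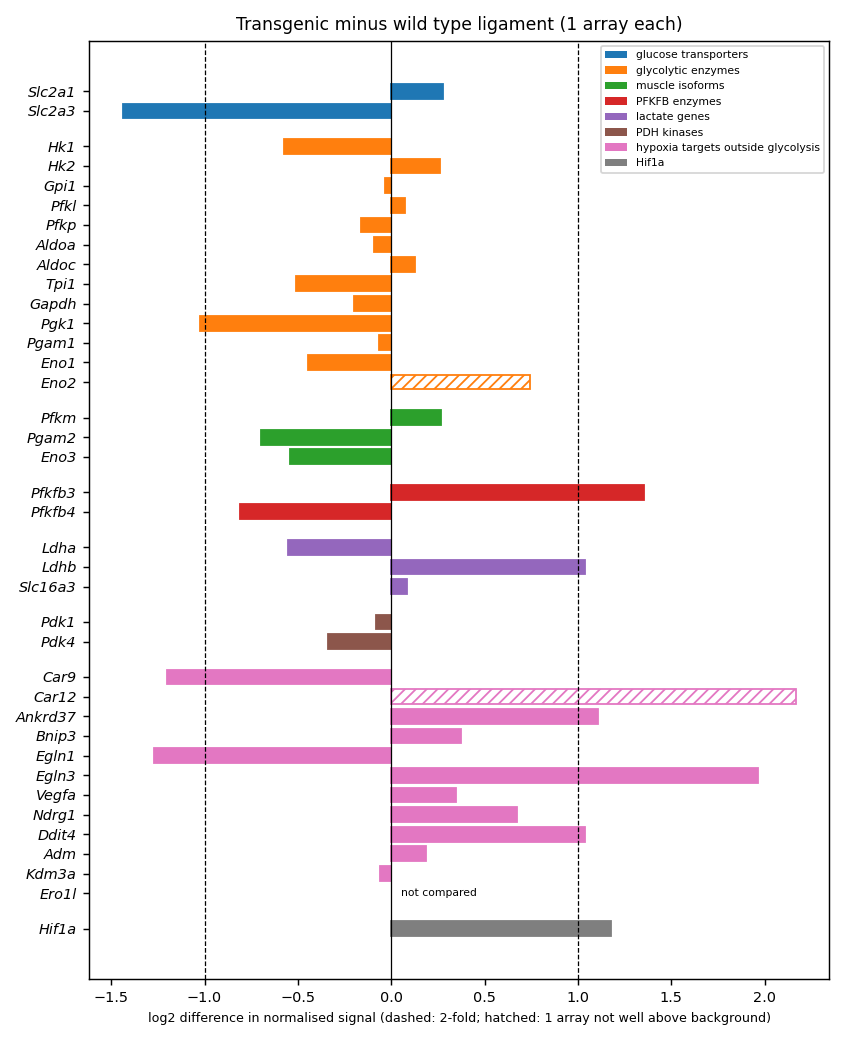
Log2 difference of normalised signal between transgenic and wild type ligament (horizontal axis), 1 array each, for the 38 genes coloured by role, with dashed lines at 2-fold and hatched bars where 1 array was not well above background. Egln3 (1.96) and Pfkfb3 (1.35) are the highest genes measured on both arrays, and Slc2a3 (-1.44) the lowest.

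The comparison of the tissue with stem cells and that of the ligaments share no array, and their values can be read side by side. Of 34 genes compared in both, 3 were past 2-fold in the same direction, Pgk1 and Car9 lower and Ldhb higher. The 2 past 2-fold in opposite directions, Ankrd37 and Ddit4, were lower in the transfected tissue and higher in transgenic ligament. The share of all genes past 2-fold in both comparisons is not given here, so these counts cannot be set against it. In ligament, Pgk1, Car9 and Ankrd37 were within 2-fold with normexp correction and Pgk1 and Ddit4 with the deposited values, so that of these 5 genes Ldhb alone kept both calls under every way of processing tried.

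Set against wild type ligament, the transfected tissue had 22 of 37 listed genes at least 2-fold lower (59.5%, where 35.6% of all genes compared were so) and 11 higher (29.7%, against 20.6%). This comparison shares an array with each of the others. Lower genes numbered 18 with quantile normalization and 17 with the deposited values. The 75th percentile used for centring was 2272 in the tissue and 285.5 in wild type ligament. Hk1, whose probes disagreed, is among the lower genes. Pgam2 was 8105-fold, Slc16a3 1771-fold, Eno3 599-fold and Pfkm 29.8-fold lower in the tissue. Slc2a3 was at least 47.9-fold and Egln3 at least 62.1-fold lower. Pgam1 was 11.1-fold, Hif1a 9.06-fold, Pfkl 7.99-fold and Slc2a1 5.25-fold higher, Ero1l at least 19.7-fold, and Ndrg1 by a log2 difference of 3.59. The muscle isoforms had a median of -9.23 and the hypoxia targets 0.43. The tissue lay within 2-fold of wild type ligament for Ldhb (-0.47), Vegfa (0.52), Ddit4 (0.43) and Kdm3a (0.63). Of 51 compared genes of the second list, 28 were lower in the tissue (54.9%, against 35.6% of all genes) and 14 higher (27.5%, against 20.6%). Glycogen phosphorylase Pygm, the insulin-responsive transporter Slc2a4, the phosphorylase kinase subunit Phkg1 and Gpd1, all abundant in muscle or fat, were 2571-fold, 2271-fold, 312-fold and 216-fold lower. In wild type ligament against stem cells 25 of 51 were higher (49.0%, against 33.7% of all genes) and 12 lower (23.5%, against 21.9%), with Gpd1, Pygm and Phkg1 at 11.37, 10.78 and 8.97.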

How the data were processed

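Total RNA was labelled with Cy3 and hybridised to Agilent mouse arrays, 1 array per sample. Per the file headers, the deposited spot signal is a linear intensity, background-subtracted and detrended by Feature Extraction 10.7.1.1. No step between arrays is named there. The submitters' processing notes name version 9.5.1.1 instead. The values of the deposited table are also a linear intensity, with nearly the same distribution in each column. Their normalization is not given in the sources used here.

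Spots marked as outliers, 155 to 281 per array, were left out. Log2 signal minus that of the array's 75th percentile was averaged over the spots of a probe, and the probe brightest on average over the arrays represented its gene. Genes well above background on either array of a pair were compared. If the dimmer signal was not, the larger of it and that array's lowest signal well above background took its place for the call. The fold is then written as at least N-fold. Medians were taken over the measured differences, dim signals included, unless stated otherwise. Probes are named by the file's symbols and placed on mm9 by the file. Every gene on the list was named, and of the second list the 4 largest differences per comparison among genes measured on both arrays, some of which are not reported here. Genes and lists were chosen with earlier results of these data known. With 1 array per group no test was made, and 4 arrays limit the precision of every value. Alternatives were normexp correction (offset 50, limma 3.58.1, R 4.3.3), quantile normalization, another centring (commonly detected probes), the deposited values, genes measured on both arrays, and the mean of all probes. Added after seeing the data were probes on the gene's own chromosome and dim arrays at their bound. The comparison step was tested on simulated data. Python 3.11.15 and pandas 2.3.3 were used.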

Additional observations from a re-analysis of the deposited data

Results flagged for a closer look

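Ankrd37 and Ddit4 differed past 2-fold in opposite directions in the comparison of the tissue with stem cells and in that of the ligaments. Ankrd37 had a log2 difference of -4.20 between the transfected tissue and stem cells and of 1.11 between transgenic and wild type ligament, a difference between the comparisons of -5.31. Ddit4 stood at -1.05 and 1.04, a difference of -2.09, and its value in cells was within 2-fold with quantile normalization, with centring on commonly detected probes and with the deposited values. In ligament, Ankrd37 was within 2-fold with normexp correction and Ddit4 with the deposited values. With 1 array per group these differences between the comparisons were not tested, and strain, culture and tissue differ with them.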

How the results depend on the processing

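No paired analysis was possible because each group has 1 array. Medians that moved by more than the spot SD of a single probe's difference (0.119 to 0.210) are listed, which is a rule for listing and not the error of a median. From stem cells to wild type ligament, the count of higher genes fell from 19 to 12 with quantile normalization and to 13 with the deposited values. The list's median of 1.45 was 0.26 with quantile normalization, 0.28 with the deposited values and 0.33 with the mean of all probes. The gap of 10.05 between muscle isoforms and hypoxia targets was 9.06 with quantile normalization, 8.56 with the deposited values and 9.24 with normexp. From stem cells to the tissue the median of -0.66 was -0.23 with quantile normalization and -0.22 with the deposited values. From wild type ligament to the tissue the median of -2.53 was -0.82 with quantile normalization, -0.87 with the deposited values, -2.28 with normexp and -2.31 with centring on commonly detected probes. The gap there of -9.65 was -8.61 with quantile normalization, -8.10 with the deposited values and -8.98 with the mean of all probes. Between the ligaments the count of lower genes fell from 4 to 1 with normexp, and the gap of -0.92 was -0.69 with quantile normalization, -0.66 with the deposited values and -1.22 with the mean of all probes. Hk1 reversed with the mean of all probes, to -2.04 for wild type ligament minus stem cells and 1.73 for tissue minus wild type ligament, and with probes on its own chromosome, to -3.55 and 3.74, since other probes are then read. The causes of the other shifts were not tested.

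The tissue had 1937 genes of the whole array above stem cells and 2375 below, or 1063 and 2163 with normexp. The share of higher genes among those past 2-fold moved from 44.9% to 33.0% with normexp and 55.6% with centring on commonly detected probes. Transgenic against wild type ligament gave 1030 and 1152, and 401 and 569 with normexp. For wild type ligament against stem cells that share was 60.6%, or 49.7% with quantile normalization, and for the tissue against wild type ligament 36.7%, or 50.5%. The median of all genes moved by more than 0.1 between stem cells and wild type ligament (-0.47 with quantile normalization, 0.40 with normexp), between wild type ligament and the tissue (0.57 and -0.46) and between stem cells and the tissue (0.14 with centring on commonly detected probes). Signals near background, such as those of Car12, Egln3 and Slc2a3 in cells, allow bounds only.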
